A study of Mus musculus with 17 samples.

Results

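Cells cultured from the lymph nodes (LN) of tumor-bearing mice were compared with cells cultured from the primary tumor in the mammary fat pad (MFP). The comparison took all 4 LN libraries and both MFP libraries, which makes 6 of the 14 bulk RNA-seq samples and 6 of the 17 samples of the series. The LN libraries were 2 replicates of CD44low cells and 2 of CD44high cells, and the CD44 groups were pooled as the comparison was defined. CD44low and CD44high are the names in the labels, and the Cd44 transcript ran against them, with 147, 82.7, 49.0 and 52.3 TPM in LN CD44low 1 and 2 and CD44high 1 and 2. The difference CD44high minus CD44low of Cd44 was -1.11 on the log2 scale (SE 0.40, adjusted p = 0.455). All lines came from female FVB/NJ mice that carry the MMTV-PyMT transgene, 10 animals aged 10 to 12 weeks, in which a mammary promoter drives the polyoma virus middle T antigen and multifocal mammary tumors form. Organ suspensions were passaged in medium with serum to enrich tumor cells. The lines were then sorted for high EpCAM together with low or high CD44, and the study also speaks of its MFP line as sorted. The MFP libraries carry no CD44 status in their labels. Replicates are described as distinct clonal isolates from different mice, and the sources used here do not say which animal gave which isolate. Every group is therefore a small number of clonal isolates grown in culture, and tissue of origin, isolate and time in culture cannot be told apart.

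The draining lymph node is often the first site that breast tumor cells reach, and a lymph node metastasis is a standard part of staging. Epithelial tumor cells are held together by tight junctions (claudins and occludin), adherens junctions (E-cadherin) and desmosomes (desmoplakin, desmogleins and plakophilins), and are anchored to the basement membrane by laminins and integrins. In epithelial to mesenchymal transition these adhesion genes are lowered by repressors such as ZEB1, ZEB2, SNAI1, SNAI2 and TWIST1, while vimentin and secreted matrix proteins rise.

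The unit is TPM (transcripts in every 1000000), a level corrected for transcript length and for library size, so that levels of different genes can be set side by side. Each of the 6 libraries had 11613 to 12078 genes at 1 TPM or more. Only a minimum of 10 M reads is stated, TPM keeps no record of depth, and so the counting error of a single value is unknown. Values are given in the order LN CD44low 1 and 2, LN CD44high 1 and 2, and then MFP 1 and 2. Summed TPM of the 6 epithelial markers was 1389 to 3452 in LN and 5251 to 6131 in MFP, with Krt8 and Epcam high throughout and Krt19 listed at 0 in LN and at 0.07 to 0.08 TPM in MFP. The T and NK cell list (10 markers) summed to 0.97 to 3.01 TPM in LN and 0.06 to 0.58 TPM in MFP, so that every LN library lay above both MFP libraries, and Cd3e, Cd3g, Cd4, Cd8a, Trbc2 and Ncr1 were listed at 0 in all 6 libraries. Of the 7 B and plasma cell markers none reached 1 TPM in any library, and the 6 lymph node stroma markers summed to 0.21 to 1.92 TPM in LN and 3.58 to 4.1 TPM in MFP. One library stood apart in growth genes: the mitosis and replication list (26 genes) summed to 1047 TPM in LN CD44low 2, 5597 to 6451 TPM in the other LN libraries and 1919 to 2597 TPM in MFP.

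Of 13038 genes tested, 312 rose in LN (2.39% of genes tested) and 453 fell (3.47%), which is 5.87% in both directions. A gene was called where limma on log2(TPM + 1) gave a difference over 2 on the log2 scale and a Benjamini-Hochberg adjusted p under 0.05. All 312 genes called higher had their 4 LN libraries above both MFP libraries, an order found in 12.1% of genes tested, and all 453 called lower had the reverse order, found in 34.2%. The same 6 libraries gave the calls and the order, so the order is no separate support for them. Protein-coding genes made up 262 of the 312 and 408 of the 453. The median difference of all genes tested was -0.34 on the log2 scale. With each library scaled by its median ratio to the others (median ratio scaling), this median was 0.02. Scaling gave 365 higher and 335 lower genes, so that the share of higher genes among the calls went from 40.8% to 52.1%. The call rested on both MFP libraries, because without MFP 1 there were 202 higher and 179 lower genes, and without MFP 2 there were 163 and 188. With 1 MFP library, only 282 of the 453 lower genes could be tested. An exact permutation test over the 15 arrangements of 4 against 2 libraries has 0.0667 as its smallest two-sided p, and for that reason p-values here are those of limma.

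A part of the calls was of an on or off kind. There were 37 genes under 1 TPM in both MFP libraries and at 10 TPM or more in all 4 LN libraries (11.9% of the genes that rose), 34 of them protein-coding. In the other direction, 56 genes were at 10 TPM or more in both MFP libraries and under 1 TPM in all 4 LN libraries (12.4% of the genes that fell), 53 of them protein-coding. Adding 1 TPM makes the difference of such genes look smaller than it is. Where a whole group listed a gene at 0, levels are given without a fold.

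**Figure D1:**
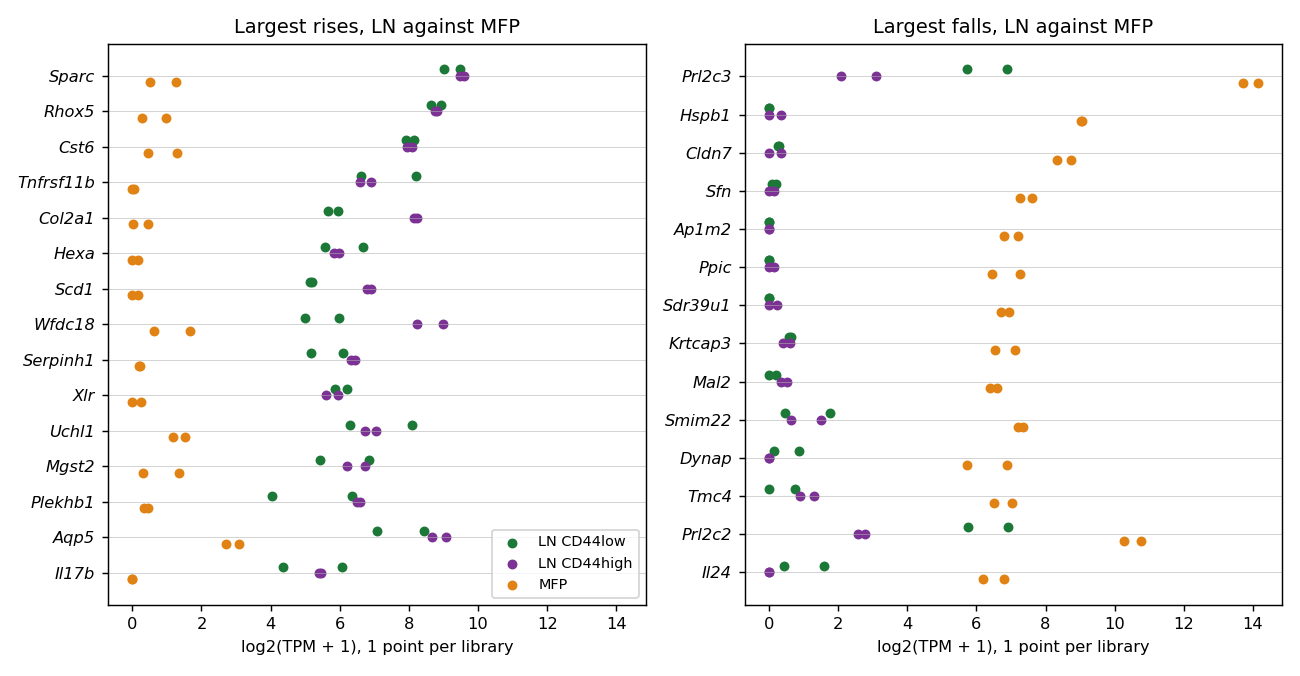
Levels of the 15 protein-coding genes with the largest rises and of 14 of the 15 with the largest falls in LN against MFP, as log2(TPM + 1), with 1 point for each of the 6 libraries and a color for LN CD44low, LN CD44high and MFP. In every row the 4 LN points lie to one side of the 2 MFP points, and the CD44low and CD44high points of LN lie apart in Col2a1, Scd1, Wfdc18 and both Prl2c genes.

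Several of the 15 largest rises were in genes of secreted or matrix proteins. Sparc, a secreted glycoprotein that binds collagen (ENSMUSG00000018593.13, chr11:55394500-55423183, minus strand), had 708, 520.2, 709 and 768 TPM in LN and 1.39 and 0.42 TPM in MFP (log2 difference 8.51, SE 0.28, adjusted p = 8.27e-06). Cst6, which encodes the cysteine protease inhibitor cystatin E/M, had 285, 240.3, 246 and 270.1 TPM in LN and 1.46 and 0.37 TPM in MFP (log2 difference 7.15, SE 0.27, adjusted p = 1.58e-05). Tnfrsf11b, the gene of osteoprotegerin, a decoy receptor for the osteoclast factor RANKL, had 96.2, 295, 95.2 and 119 TPM in LN and 0.04 and 0 TPM in MFP (log2 difference 7.05, SE 0.47, adjusted p = 1.62e-04). These 3 genes were high in each LN library and near 0 in MFP, and osteoprotegerin was highest in LN CD44low 2. Col2a1, the collagen chain of cartilage, had 49.7, 60.4, 282 and 299.7 TPM in LN and 0.38 and 0.02 TPM in MFP (log2 difference 6.75, adjusted p = 0.00152). Serpinh1, the chaperone that collagens need for folding in the endoplasmic reticulum, had 67.9, 34.9, 86.8 and 78.6 TPM in LN and 0.17 and 0.15 TPM in MFP (log2 difference 5.80, adjusted p = 1.61e-04). Both genes were lower in the CD44low than in the CD44high libraries of LN, by far more in Col2a1.

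Other large rises fell in enzymes, channels and a cytokine. Scd1, the desaturase that makes monounsaturated fatty acids, had 34.4, 35.5, 109 and 118 TPM in LN and 0.13 and 0 TPM in MFP (log2 difference 5.92, adjusted p = 6.62e-04). Hexa, the alpha subunit of a lysosomal hexosaminidase, had 46.7, 102, 61.9 and 56.0 TPM in LN and 0.13 and 0 TPM in MFP (log2 difference 5.93, adjusted p = 8.64e-05). The water channel gene Aqp5 had 135, 348, 539 and 403 TPM in LN and 5.50 and 7.47 TPM in MFP (log2 difference 5.43, adjusted p = 5.97e-04). Aqp5 was thus already present in MFP, while Scd1 and Hexa were not above 0.13 TPM there. Uchl1, a ubiquitin hydrolase best known from neurons, spanned 77.9 to 273 TPM in LN and 1.27 to 1.85 TPM in MFP. The glutathione transferase gene Mgst2 spanned 42.4 to 114 against 0.25 to 1.55 TPM. Il17b, a cytokine of the interleukin 17 family, was at 65.7, 19.7, 43.0 and 41.4 TPM in LN and listed at 0 in both MFP libraries. Plekhb1 was at 15.5, 80.3, 94.8 and 88.6 TPM in LN, lowest in LN CD44low 1, and at 0.36 and 0.27 TPM in MFP (log2 difference 5.47, adjusted p = 0.00222). Wfdc18, a secreted protein with a whey acidic protein domain, was at 30.7, 62.4, 508 and 302 TPM in LN and 2.15 and 0.54 TPM in MFP (log2 difference 5.91, adjusted p = 0.00975). The test was not passed without MFP 1 (difference 6.43) or MFP 2 (5.40).

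The 15 largest falls included 2 hormones of the placental prolactin family, a chaperone and a set of epithelial genes. Prl2c3 had 117, 52.5, 3.22 and 7.62 TPM in LN and 18129 and 13372 TPM in MFP (log2 difference -9.47, SE 1.24, adjusted p = 0.00249). Prl2c2 had 119.5, 53.2, 5.84 and 4.96 and 1719 and 1228 TPM (log2 difference -6, adjusted p = 0.0143). Both were lowest in the CD44high libraries of LN and far higher in both MFP libraries. These genes are near-identical copies, so how reads were split between them is uncertain. Prl2c2 did not pass without MFP 1 (difference -5.76) or MFP 2 (-6.24). Hspb1, a small heat shock protein that binds unfolded proteins and actin (ENSMUSG00000004951.10, chr5:135887919-135889563, plus strand), had 0, 0, 0.26 and 0 TPM in LN and 519 and 535 TPM in MFP (log2 difference -8.96, SE 0.25, adjusted p = 7.42e-06). Hspb1 was on in MFP and close to 0 in every LN library. Epcam, on which the lines were sorted, had 315, 567, 941 and 820.1 TPM in LN and 837 and 725 TPM in MFP (log2 difference -0.35, adjusted p = 0.567, and 0.07 with scaling) and overlapped.

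Ap1m2, the subunit that gives the AP-1 clathrin adaptor of epithelial cells its role in basolateral sorting (ENSMUSG00000003309.14, chr9:21294275-21312337, minus strand), had 109.9 and 145 TPM in MFP, whereas each LN library listed it at 0. Mal2, a membrane protein of apical transport in polarized cells, had 0.14, 0, 0.43 and 0.26 TPM in LN and 83.6 and 96.0 TPM in MFP (log2 difference -6.24, adjusted p = 3.15e-05). Both genes of polarized sorting were thus at or near 0 throughout LN. Ppic, the peptidyl-prolyl isomerase cyclophilin C, had 0, 0, 0 and 0.11 TPM in LN and 152 and 86.1 TPM in MFP (log2 difference -6.81, adjusted p = 3.15e-05). Il24, a cytokine of the interleukin 10 family, had 1.99, 0.34, 0 and 0 TPM in LN and 110.0 and 71.6 TPM in MFP (log2 difference -5.99, adjusted p = 3.38e-04). Other falls among the 15 largest included Sdr39u1 (0 to 0.18 TPM in LN, 103 to 122 TPM in MFP), Krtcap3 (0.33 to 0.57 and 91.1 to 138), Smim22 (0.38 to 2.42 and 148 to 162), Dynap (0 to 0.84 and 51.9 to 118) and Tmc4 (0 to 1.48 and 90.8 to 129), each with every LN library below both MFP libraries.

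The starts of Cldn7 and Ap1m2 are shown because both genes were near 0 in LN. They were picked for holding a 6-letter E-box, so their matches are no evidence about it. Sparc and Hspb1 are shown beside them as the largest rise outside the X chromosome and the largest fall outside the Prl2c copies. The sequences are RefSeq promoters on build GRCm38.p6, each 300 bases from 250 bases before to 50 after the start, 5′ to 3′ on the strand of the gene. Capitals mark CACCTG and its reverse complement CAGGTG, searched as 1 motif on both strands.
Cldn7, second of 2 starts, chr11:69965171-69965470, plus strand: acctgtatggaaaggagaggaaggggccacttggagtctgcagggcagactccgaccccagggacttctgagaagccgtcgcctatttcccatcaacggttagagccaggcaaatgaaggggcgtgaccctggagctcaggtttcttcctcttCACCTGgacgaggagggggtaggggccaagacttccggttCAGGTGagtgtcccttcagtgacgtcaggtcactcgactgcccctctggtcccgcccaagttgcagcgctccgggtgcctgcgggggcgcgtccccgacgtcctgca
Ap1m2, chr9:21312284-21312583, minus strand: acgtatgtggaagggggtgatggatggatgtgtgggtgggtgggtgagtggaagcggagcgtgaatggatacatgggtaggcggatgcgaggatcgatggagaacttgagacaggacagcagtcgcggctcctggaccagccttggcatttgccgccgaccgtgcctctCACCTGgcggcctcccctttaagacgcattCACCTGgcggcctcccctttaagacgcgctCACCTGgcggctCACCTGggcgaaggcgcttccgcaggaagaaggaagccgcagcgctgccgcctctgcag
Sparc, chr11:55420031-55420330, minus strand: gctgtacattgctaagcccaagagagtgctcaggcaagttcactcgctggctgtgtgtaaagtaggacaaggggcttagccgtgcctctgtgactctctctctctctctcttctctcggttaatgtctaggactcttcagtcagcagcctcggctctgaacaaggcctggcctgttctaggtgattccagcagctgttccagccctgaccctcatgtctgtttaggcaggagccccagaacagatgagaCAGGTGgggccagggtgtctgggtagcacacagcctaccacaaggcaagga
Hspb1, chr5:135887669-135887968, plus strand: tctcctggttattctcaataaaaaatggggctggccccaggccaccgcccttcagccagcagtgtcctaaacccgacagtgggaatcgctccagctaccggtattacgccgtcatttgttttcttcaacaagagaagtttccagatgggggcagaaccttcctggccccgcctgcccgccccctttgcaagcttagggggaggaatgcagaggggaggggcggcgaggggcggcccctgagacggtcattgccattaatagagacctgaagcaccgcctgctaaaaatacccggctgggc
The motif occurred 4 times at Ap1m2, 2 times at this start of Cldn7, once at Sparc and not at Hspb1, and the first Cldn7 start held 0. Over all 32851 promoters of the table, 20.2% held it at least once and 2.88% held 2 or more. Of 19 promoters matched to 13 of the 18 tested genes of the junction list, 13 held it (68.4%), compared to 24.8% of promoters of genes that fell, 20.7% of genes that rose and 17.7% of all tested protein-coding genes. These shares are given without a test, the junction list was chosen with its falls known, and a match is a letter match in this window and no measure of binding.

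Of 18 tested members of the list of epithelial junction genes, 11 fell and none rose (3.47% of all genes fell), and the median difference of the list was -2.33 beside -0.34 for all genes. With median ratio scaling 8 fell and the median was -1.92, and 8 fell without MFP 1 and 5 without MFP 2, where Cldn7 and Dsg2 were not tested. The claudins of tight junctions differed among themselves. Cldn7 (ENSMUSG00000018569.12, chr11:69964779-69967885, plus strand) had 0.19, 0.22, 0 and 0.27 TPM in LN and 428 and 321 TPM in MFP (log2 difference -8.32, SE 0.26, adjusted p = 7.94e-06). Cldn1 had 0.92, 0.26, 1.16 and 1.07 and 13.8 and 14.2 TPM (log2 difference -3.05, adjusted p = 7.59e-04). Cldn4 had 107, 52.5, 102 and 98.7 TPM in LN and 469 and 505 TPM in MFP (log2 difference -2.47, adjusted p = 0.00201). Cldn3 had 690.1, 538, 808 and 806 and 984 and 958 TPM (log2 difference -0.47, adjusted p = 0.145). Cldn7 was therefore near 0 in every LN library and Cldn4 lowered but present, while Cldn3 was the most abundant of these 4 claudins in LN and was not called.

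Among the other junction genes, Cdh1 (E-cadherin) had 29.9, 18.7, 34.0 and 41.8 TPM in LN and 139 and 159 TPM in MFP (log2 difference -2.28, SE 0.32, adjusted p = 0.00336), all LN libraries below MFP. Its difference was -1.86 with median ratio scaling and -2.18 without MFP 2, neither of which passed. Ocln (occludin) spanned 6.51 to 14.4 TPM in LN and 47.3 to 61.2 TPM in MFP (log2 difference -2.39, adjusted p = 0.00315). Marveld2 (tricellulin, which seals the corners where 3 cells meet) spanned 0.39 to 2.18 and 23.2 to 24.2 TPM (log2 difference -3.53, adjusted p = 9.00e-04). Crb3, which sets apical polarity, spanned 4.72 to 13.1 TPM in LN and 107 to 128 TPM in MFP (log2 difference -3.49, adjusted p = 0.00124). In each of these the LN range lay below the MFP range, and Ocln did not pass with scaling (-1.99) or without MFP 2 (-2.21). Of the desmosome genes, Dsg2 was at 0.44, 0.69, 0.85 and 0.59 TPM in LN and 16.9 and 18.7 TPM in MFP (log2 difference -3.52, adjusted p = 1.89e-04). Dsp was at 3.15 to 3.36 and 18.1 to 26.7 TPM (log2 difference -2.43, adjusted p = 0.00105). Pkp1 was at 4.39 to 17.1 and 44.6 to 48.9 TPM (log2 difference -2.60, adjusted p = 0.0115, with -2.66 and -2.53 without MFP 1 or 2, neither of which passed). Desmosome genes did not all fall, since Pkp2 had 18.5, 17.7, 10.1 and 9.43 TPM in LN and 7.56 and 8.23 TPM in MFP (log2 difference 0.69, adjusted p = 0.189). Jup, the plakoglobin shared by both kinds of cell contact, passed the adjusted p but not the fold (100.02, 93.7, 86.6 and 100.3 and 194.87 and 192 TPM, log2 difference -1.02, adjusted p = 0.00775).

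Of 14 tested members of a list of epithelial regulators, 4 fell and none rose (3.47% of all genes fell). The falls include Rab25 and Spint1, which are not transcription or splicing factors. The median difference of the list was -1.10 beside -0.34 for all genes, or -0.68 with scaling. With scaling 3 fell, without MFP 2, 2 fell, and without LN CD44low 1, 1 rose. Rab25, a GTPase of epithelial vesicle recycling, had 0.97, 1.83, 7.45 and 6.97 TPM in LN and 185 and 258 TPM in MFP (log2 difference -5.64, SE 0.63, adjusted p = 0.00121). Spint1, a surface protease inhibitor, had 7.63, 10.6, 9.39 and 10.9 TPM in LN and 83.7 and 100.3 TPM in MFP (log2 difference -3.14, adjusted p = 2.56e-04). The transcription factor gene Elf3 had 2.39, 4.09, 7.38 and 3.37 and 24.1 and 46.4 TPM (log2 difference -2.78, adjusted p = 0.00497, and -2.32 without MFP 2, where it did not pass). All 3 were below MFP in every LN library, and Rab25 was lowest in the CD44low libraries. The splicing factor genes Esrp1 (8.06 to 11.9 and 20.9 to 21.3 TPM, log2 difference -0.93, adjusted p = 0.0394) and Esrp2 (3 to 7.93 and 15.4 to 19.5 TPM, log2 difference -1.71, adjusted p = 0.0172) were lower by less than the fold threshold. Grhl2, a factor that holds the epithelial program, overlapped (14.9, 9.14, 11.8 and 17.1 and 14.5 and 17.4 TPM). Ehf, an epithelial ETS factor, had 3.66, 23.6, 56.8 and 38.2 TPM in LN and 3.08 and 4.63 TPM in MFP (log2 difference 2.24, adjusted p = 0.121), with LN CD44low 1 within the MFP range.

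None of the 3 tested luminal keratins was called. Krt8 had 756, 1564, 1624 and 1505 TPM in LN and 2966 and 2631 TPM in MFP (log2 difference -1.10, adjusted p = 0.0492). Its partner Krt18 had 287, 522, 853 and 743 and 1761 and 1414 TPM (log2 difference -1.51, adjusted p = 0.0416). Both lay below MFP in every LN library, with LN CD44low 1 the lowest. Genes of basal or squamous epithelium differed more, with 6 of 8 tested members lower, none higher, and a median of -3.99 (3.47% of all genes fell). Without either MFP library 4 of 5 tested members fell, and Sfn and Lama3 were not tested. Krt14, the basal keratin, had 12.6, 28.8, 62.4 and 57.1 TPM in LN and 594 and 655 TPM in MFP (log2 difference -4.16, SE 0.59, adjusted p = 0.00343). Sfn, the cell cycle regulator 14-3-3 sigma, had 0.07, 0.16, 0 and 0.10 TPM in LN and 193 and 154 TPM in MFP (log2 difference -7.32, SE 0.25, adjusted p = 1.04e-05). Chains of the laminin that anchors epithelium to the basement membrane were lower in LN, as was a subunit of their receptor. Lama3 was at 0 to 0.01 TPM in LN and 14.4 to 16.7 TPM in MFP. Lamb3 was at 2.94 to 6.14 and 74.2 to 90.5 TPM (log2 difference -3.93, adjusted p = 2.46e-04). Itgb4, the integrin beta 4 of hemidesmosomes, had 20.5, 11.4, 12.1 and 11.1 TPM in LN and 141 and 99.97 TPM in MFP (log2 difference -3.06, adjusted p = 8.32e-04). The myoepithelial marker list, which Krt14 belongs to, summed to 16.2 to 68.6 TPM in LN and 594 to 656 TPM in MFP. In bulk RNA, fewer cells of a type and less RNA per cell cannot be told apart.

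Mesenchymal genes rose in part. Of 20 tested members 8 rose and none fell (2.39% of all genes rose), with a median difference of 1.67, which was 1.98 with scaling, and 7 to 9 rose with any 1 library left out. Vim, the intermediate filament of mesenchymal cells, had 297, 400.4, 364 and 384 TPM in LN and 33.5 and 14.5 TPM in MFP (log2 difference 3.96, SE 0.32, adjusted p = 3.26e-04). Col6a1, a collagen VI chain, had 19.13, 72.6, 28.4 and 29.2 TPM in LN and 0.33 and 0.26 TPM in MFP (log2 difference 4.71, adjusted p = 8.84e-04). The matricellular gene Ccn5 had 33.7, 35.3, 42.3 and 51.3 and 0.30 and 1.32 TPM (log2 difference 4.56, adjusted p = 1.89e-04). None of these overlapped between LN and MFP, and Vim varied little among the 4 LN libraries. Of the TGF-beta ligands, Tgfb3 had 42.1, 28.0, 19.3 and 15.02 TPM in LN and 0.37 and 0.06 TPM in MFP (log2 difference 4.39, adjusted p = 6.27e-04). Tgfb2 had 8.34, 10.04, 14.2 and 9.39 and 0.94 and 1.62 TPM (log2 difference 2.33, adjusted p = 0.00239). Tgfb1 had 1.70, 1.32, 2.44 and 1.38 and 0.89 and 0.36 TPM, which was not called. Prrx1, a homeobox factor of limb and craniofacial mesenchyme, had 24.1, 8.11, 12.4 and 13.4 TPM in LN and 0.10 and 0.02 TPM in MFP (log2 difference 3.77, adjusted p = 0.00105).

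The classical repressors did not move as one. Zeb1 had 4.53, 5.27, 1.32 and 2.33 TPM in LN and 0.61 and 0.20 TPM in MFP (log2 difference 1.54, adjusted p = 0.0472). Zeb2 had 11.9, 4.73, 4.10 and 4.66 and 1.05 and 1.02 TPM (log2 difference 1.74, adjusted p = 0.0258). Both were above MFP in every LN library and passed the adjusted p, but not the fold threshold. Twist1 lay below MFP in every LN library (1.84, 1.92, 1.48 and 0.67 and 5.25 and 4.47 TPM, log2 difference -1.27, adjusted p = 0.0285). Snai1 had 3.29, 1.16, 0.81 and 0.58 TPM in LN and 9.67 and 3.44 TPM in MFP (log2 difference -1.60, adjusted p = 0.063). Snai2 (5.95, 1.94, 1.60 and 0.69 and 2.58 and 2.71 TPM), Cdh2 (N-cadherin, 125, 33.9, 56.3 and 69.4 and 80.8 and 32.5 TPM) and Axl (287, 66.3, 86.5 and 111 and 102 and 55.4 TPM) overlapped between the groups and were not called. The fibroblast markers, 10 genes, summed to 7.43 to 32.1 TPM in LN and 0.5 to 1.31 TPM in MFP, and Lum, Thy1 and Fap were listed at 0 in all 6 libraries. The part of other cells in these differences was not tested.

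Among integrins, laminins and matrix proteases, 5 of 25 tested members rose and 2 fell (2.39% and 3.47% of all genes), around a median of -0.24, which was 0.15 with scaling. Without MFP 1, 4 rose and 1 fell with a median of 0.30, and without MFP 2, 2 rose and 2 fell with a median of -0.41. Without LN CD44low 1, 4 fell, and without LN CD44high 2, 3 rose and 1 fell. Spp1 (osteopontin, a secreted ligand of integrins and of CD44) had 793, 1595, 5930.1 and 4641 TPM in LN and 207 and 62.3 TPM in MFP (log2 difference 4.40, SE 0.85, adjusted p = 0.0121). Spp1 did not pass without MFP 2 (difference 3.55). Postn (periostin) was at 3.09, 3.92, 23.6 and 12.6 TPM in LN and 0.04 and 0.02 TPM in MFP (log2 difference 3.14, adjusted p = 0.0223). Postn did not pass without LN CD44high 2 (2.94) or either MFP library (3.15 and 3.12). Both genes were higher in the CD44high than in the CD44low libraries of LN. The inhibitors of matrix metalloproteases Timp2 (118 to 225 TPM in LN, 21.3 to 24.4 TPM in MFP, log2 difference 2.74, adjusted p = 8.30e-04) and Timp3 (32.8 to 73.1 and 9.93 to 17.9 TPM, log2 difference 2.02, adjusted p = 0.0122) rose as well, as did the laminin chain gene Lama4 (5.01 to 7.70 and 0.15 to 0.33 TPM, log2 difference 2.49, adjusted p = 0.00107). Timp3 did not pass without LN CD44low 2 (1.95), LN CD44high 1 (1.93), LN CD44high 2 (1.90) or MFP 2 (1.62). Itgb6, the epithelial subunit of the integrin that activates latent TGF-beta, fell from 31.9 and 22.9 TPM in MFP to 2.57, 2.10, 1.23 and 1.92 TPM in LN (log2 difference -3.27, adjusted p = 5.25e-04). Mmp10 had 7.88, 3.51, 0 and 0.19 TPM in LN and 79.2 and 17.2 TPM in MFP (log2 difference -3.86, adjusted p = 0.0331). Mmp10 did not pass with scaling (-3.57) or without LN CD44high 1 (-3.40), LN CD44high 2 (-3.48), MFP 1 (-2.80) or MFP 2 (-4.93). Cd44 itself, a receptor for hyaluronan, had 147, 82.7, 49.0 and 52.3 TPM in LN and 399.9 and 209.7 TPM in MFP (log2 difference -1.94, adjusted p = 0.0291), so that every LN library lay below MFP, and the libraries labelled CD44high were the lowest. Among the 7 sorting and tumor surface markers Prom1 (CD133) alone fell (3.47% of all genes fell), around a median of -0.35 that was 0.07 with scaling, and it did not pass with scaling (-1.82) or without LN CD44low 1 (-1.93), LN CD44low 2 (-1.92), MFP 1 (-2.31) or MFP 2 (-2.01). Without LN CD44low 1 the member called was Cd44 itself (difference -2.26). Prom1 had 0.35, 0.33, 2.73 and 2.42 TPM in LN and 7.82 and 9.87 TPM in MFP (log2 difference -2.16, adjusted p = 0.0252).

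**Figure D2:**
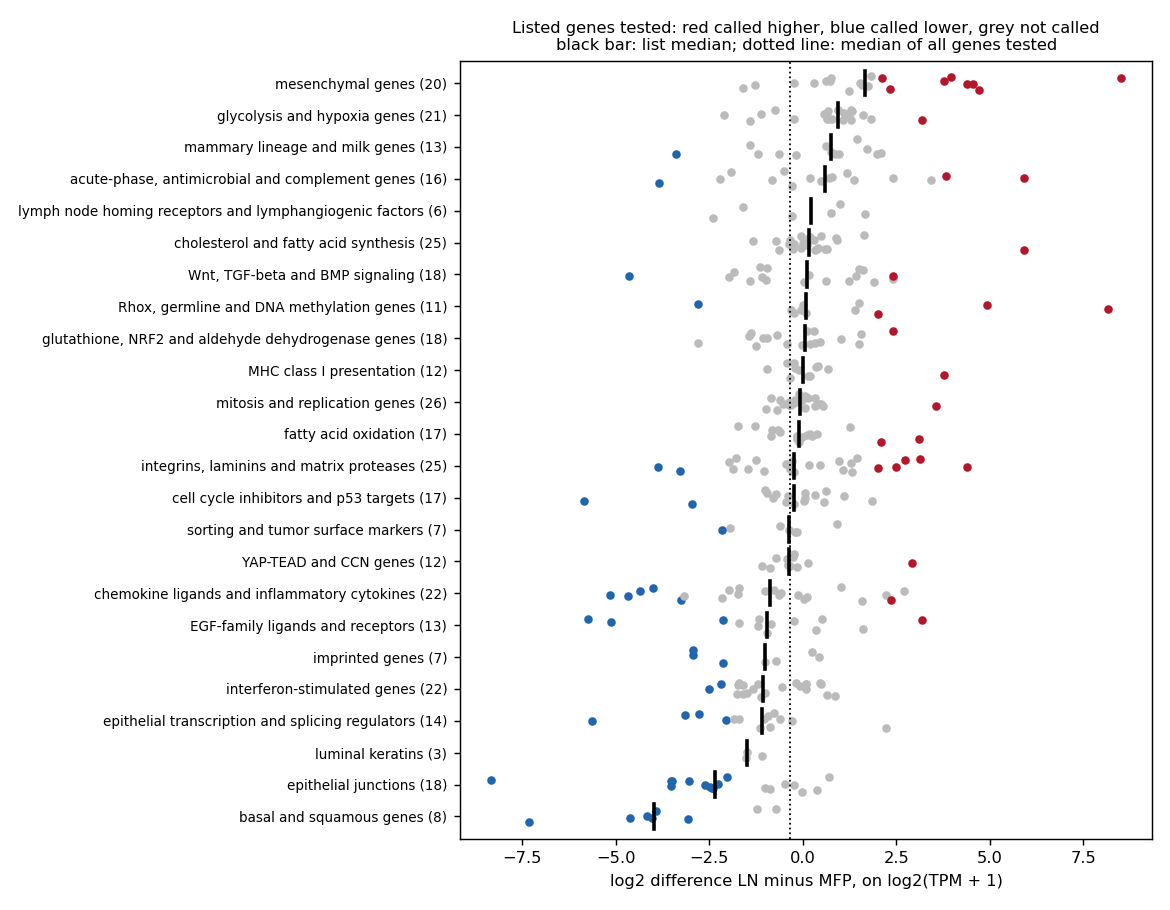
Log2 differences LN minus MFP of the tested members of each gene list, with 1 point per gene, red for genes called higher, blue for genes called lower and grey for the rest. The cell type marker lists and the histone genes are not drawn. Black bars mark the list medians and the dotted line the median of all genes tested (-0.34), and the epithelial junction (-2.33) and basal and squamous (-3.99) medians lie farthest to the left while the mesenchymal median (1.67) lies farthest to the right.

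Of 439 tested genes on the X chromosome, 34 rose (7.74% of them, beside 2.39% of all genes) and 25 fell (5.69%, beside 3.47%). Of the 37 genes that were off in MFP and on in LN, 12 are X-linked, as are 4 of the 56 with the reverse pattern, beside 3.37% of all genes tested. The rises included germline and testis genes. Rhox5, the founding gene of a homeobox cluster used in the testis and ovary (ENSMUSG00000095180.8, chrX:37804842-37808876, plus strand), had 488, 396, 446 and 432 TPM in LN and 0.96 and 0.21 TPM in MFP (log2 difference 8.16, SE 0.25, adjusted p = 7.94e-06). Xlr, of the X-linked lymphocyte-regulated family, had 73.0, 57.3, 60.3 and 47.2 TPM in LN and 0 and 0.20 TPM in MFP (log2 difference 5.77, adjusted p = 3.30e-05). Xlr3a had 27.1, 28.4, 37.3 and 26.6 TPM in LN and was listed at 0 in MFP. Each was on in all 4 LN libraries at levels close to one another. Magea5 (19.15 to 30.0 TPM in LN) and Magea8 (15.9 to 17.7 TPM), genes of the MAGE-A family that are normally used in the testis, Rhox2d (11.9 to 20.4 TPM) and Nxf3 (11.4 to 23.6 TPM) were listed at 0 in both MFP libraries as well, and were picked after their values were seen. Copies within the Xlr, Rhox and Mage families are alike in sequence, so the split between members is uncertain.

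Xist, the RNA that silences one X chromosome in female cells, went the other way, with 0.01, 0, 0.01 and 0 TPM in LN and 5.53 and 6.4 TPM in MFP (log2 difference -2.79, SE 0.22, adjusted p = 3.03e-04). Its antisense partner Tsix had 5.43 and 8.49 TPM in MFP and was listed at 0 in every LN library, and without strand the reads of both cannot be told apart. Both were on in MFP and at or near 0 in LN, and Xist was also at 0 to 0.01 TPM in the 4 bone marrow (BM) libraries. Over the Rhox, germline and DNA methylation list, 3 of 11 tested members rose and 1 fell (2.39% and 3.47% of all genes), with a median of 0.09 that was 0.36 with scaling. The median was 0.42 without LN CD44low 2, 0.70 without LN CD44high 1, 0.40 without LN CD44high 2, 0.92 without MFP 1 and 1.38 without MFP 2. Without either MFP library 2 rose and none fell, as Xist was then not tested, and 2 rose without either CD44low library. The DNA methyltransferase genes Dnmt1 (58.0, 19.3, 35.4 and 45.6 and 49.8 and 37.6 TPM) and Dnmt3a (3.05, 2.18, 3.59 and 4.50 and 2.83 and 3.60 TPM) overlapped. Tet3, an oxidase of methylated cytosine, lay above MFP in every LN library (10.7, 8.17, 7.15 and 5.72 and 2.36 and 1.79 TPM, log2 difference 1.51, adjusted p = 0.0139) without passing the fold threshold. Of 7 tested imprinted genes, 3 fell (3.47% of all genes fell), or 2 with scaling, with a median of -0.996 that ran from -1.56 with a filter of 5 TPM to -0.63 with scaling. Phlda2, a growth-limiting gene of the placenta, had 5.42, 4.62, 5.84 and 4.36 TPM in LN and 50.2 and 39.6 TPM in MFP (log2 difference -2.92, adjusted p = 3.93e-04). Mest had 4.55, 0.72, 0.63 and 1.65 TPM in LN and 13.0 and 25.5 TPM in MFP (log2 difference -2.93, adjusted p = 0.0108). Mest did not pass without MFP 1 (-3.38) or MFP 2 (-2.47).

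Of 22 tested chemokine and cytokine genes, 5 fell and 1 rose, beside 3.47% and 2.39% of all genes, and the median was -0.89. The median was -0.49 with scaling, -0.50 without MFP 1 and -1.25 without LN CD44low 1, when 3 rose. Without either MFP library 2 fell, and Il1a was not tested. The macrophage and dendritic markers (10 genes) summed to 2.43 to 10.7 TPM in LN and 11.98 to 26.1 TPM in MFP, with Adgre1 and C1qa listed at 0 in all 6 libraries, and their part in these values was not tested. Cxcl16, a membrane-bound chemokine for the receptor CXCR6 on T cells, had 5.41, 1.68, 10.7 and 11.3 TPM in LN and 284 and 216 TPM in MFP (log2 difference -5.14, SE 0.60, adjusted p = 0.00154). Ccl5, which draws T cells and monocytes, had 8.07, 25.1, 6.98 and 4.64 TPM in LN and 159 and 162 TPM in MFP (log2 difference -3.99, adjusted p = 0.00326). The monocyte attractant Ccl2 had 33.1, 8.98, 34.5 and 36.5 and 279.8 and 219.6 TPM (log2 difference -3.26, adjusted p = 0.00688). All LN libraries were below MFP in these 3, and Ccl2 did not pass without MFP 1 (-3.09) or MFP 2 (-3.44). Ccl20, the ligand of CCR6, had 1.28, 0.18, 13.2 and 12.9 TPM in LN and 122 and 122 TPM in MFP (log2 difference -4.68, adjusted p = 0.0197, and -4.68 without MFP 1 and -4.68 without MFP 2, neither of which passed). Il1a, an alarm cytokine of epithelium, had 0.07, 0.06, 0 and 0 TPM in LN and 28.5 and 13.9 TPM in MFP (log2 difference -4.34, adjusted p = 2.15e-04). The member that rose was Cx3cl1 (fractalkine), at 33.4, 54.8, 66.4 and 60.1 TPM in LN and 10.9 and 8.04 TPM in MFP (log2 difference 2.35, adjusted p = 0.00284). Cx3cl1 did not pass without MFP 2 (2.15). Il33 varied widely among LN libraries and was not called (0.38, 36.8, 16.5 and 6.05 and 0.45 and 0.30 TPM, log2 difference 2.71, adjusted p = 0.135).

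None of 6 tested members of the list of lymph node homing receptors and lymphangiogenic factors was called (1 was lower without LN CD44low 1). Beside it, 5.87% of all genes were called, so a count of none among 6 says little. Of the 18 genes listed, 12 stayed under the filter. The list median was 0.23, or 0.51 with scaling, but -0.17 without LN CD44high 1, -0.36 without LN CD44high 2 and -1.34 with a filter of 5 TPM. Vegfc, the main growth factor of lymphatic vessels, had 3.60, 0.86, 2.41 and 2.20 TPM in LN and 15.2 and 4.47 TPM in MFP (log2 difference -1.60, adjusted p = 0.0666). Nrp1, a co-receptor of VEGF and semaphorins, had 21.4, 4.51, 1.46 and 1.76 and 31.3 and 23.6 TPM (log2 difference -2.39, adjusted p = 0.0842). Both were lower in LN on average, with the LN CD44low 1 library nearest to MFP. Adm, the vessel peptide adrenomedullin, was at 0.82, 4.21, 3.88 and 1.61 TPM in LN and 0 and 0.08 TPM in MFP (log2 difference 1.67, adjusted p = 0.0414), above MFP in every library and under the fold threshold.

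Of 16 tested acute-phase, antimicrobial and complement genes, 2 rose and 1 fell (2.39% and 3.47% of all genes), around a median of 0.59 that was -0.28 with a filter of 5 TPM, -0.18 without LN CD44high 1 and -0.04 without LN CD44high 2. Without either MFP library none rose and Cd55 was not tested, and without LN CD44low 2 or LN CD44high 1, 1 rose and 2 fell. Cd55, which protects cells from complement, had 10.5 and 16.7 TPM in MFP, whereas each LN library listed it at 0. Ceacam1 was at 2.05, 21.2, 52.8 and 27.4 TPM in LN and 0.23 and 0.29 TPM in MFP (log2 difference 3.83, adjusted p = 0.0361). It was lowest in LN CD44low 1, and did not pass with scaling (4.03) or without any 1 of the other 5 libraries (3.30 to 3.87). Lcn2, the siderophore-binding lipocalin, had 46.0, 296, 3753 and 2686 TPM in LN and 356 and 36.7 TPM in MFP (log2 difference 2.40, adjusted p = 0.361). Lcn2 was high in both CD44high libraries and overlapped MFP in the CD44low ones. Of 22 interferon-stimulated genes 2 fell and none rose (3.47% of all genes fell), with a median of -1.06, and 1 fell with scaling or without LN CD44high 1. Without MFP 1 none fell and the median was -0.62. Ifih1, a sensor of viral RNA, had 1.97, 3.35, 0.50 and 0.85 TPM in LN and 10.5 and 9.65 TPM in MFP (log2 difference -2.18, adjusted p = 0.0152). Ifih1 did not pass with scaling (-1.85), without LN CD44high 1 (-1.94) or without either MFP library (-2.12 and -2.24). Usp18 had 0, 1.33, 0.74 and 0.26 TPM in LN and 11.8 and 4.65 TPM in MFP (log2 difference -2.50, adjusted p = 0.0098). Usp18 did not pass without MFP 1 (-1.91).

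Antigen presentation by MHC class I held 1 rise among 12 tested genes (2.39% of all genes rose), with a median of 0.02 that ran from -0.20 without MFP 2 to 0.41 with scaling. The gene was Psmb8, a catalytic subunit of the immunoproteasome, at 11.5, 48.0, 39.1 and 30.7 TPM in LN and 2.60 and 0.29 TPM in MFP (log2 difference 3.78, adjusted p = 0.0065, and 3.04 without MFP 2, where it did not pass). H2-K1, a class I heavy chain, had 995, 1219.8, 1275 and 1244 TPM in LN and 1509 and 1271 TPM in MFP. The light chain gene B2m had 2407, 4372, 2739 and 2690.3 and 2282 and 2158 TPM. Neither was called.

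In the EGF family and its targets, 2 ligands and the receptor fell and an ETS factor rose. Of 13 tested members 3 fell and 1 rose (3.47% and 2.39% of all genes), with a median of -0.95. With scaling 2 fell, 2 rose and the median was -0.61, and without either MFP library none was called. Ereg (epiregulin) had 0.03, 0, 0 and 0 TPM in LN and 60.7 and 46.0 TPM in MFP (log2 difference -5.74, SE 0.25, adjusted p = 3.15e-05). Epgn (epigen) had 0, 0, 0.30 and 0 and 39.2 and 33.6 TPM (log2 difference -5.13, SE 0.26, adjusted p = 5.21e-05). With 1 MFP library left these genes were 1 TPM or more in only 1 library and were not tested. The receptor gene Egfr had 2.29, 0.32, 3.20 and 2.37 TPM in LN and 11.9 and 10.7 TPM in MFP (log2 difference -2.13, adjusted p = 0.0201). All LN libraries lay below MFP, and it did not pass with scaling (-1.80) or without LN CD44low 2 (-1.77), MFP 1 (-2.06) or MFP 2 (-2.21). Other ligand genes were not called, as Areg, which overlapped (224, 86.3, 52.9 and 49.0 and 297 and 127 TPM, log2 difference -1.20, adjusted p = 0.214) and Hbegf (78.0, 42.6, 33.3 and 33.1 and 127 and 79.7 TPM, log2 difference -1.18, adjusted p = 0.0707). Downstream, Etv5, an ETS factor induced by ERK signaling, had 13.6, 18.4, 84.1 and 58.1 TPM in LN and 5.04 and 1.41 TPM in MFP (log2 difference 3.18, adjusted p = 0.0272). Etv5 did not pass without LN CD44high 2 (2.92), MFP 1 (3.84) or MFP 2 (2.52). Dusp6, the phosphatase that ERK induces against itself, lay above MFP in every LN library (190.4, 129, 269.9 and 219 and 76.3 and 51.5 TPM, log2 difference 1.62, adjusted p = 0.0134).

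In the Wnt, TGF-beta and BMP list, 1 of 18 tested members rose and 1 fell (2.39% and 3.47% of all genes), with a median of 0.11, or 0.49 with scaling and -1.02 with a filter of 5 TPM. Without LN CD44low 1 the median was -0.07, and 2 rose and 2 fell, without either MFP library none was called, and with scaling 2 rose. Wnt7a had 7.12, 0.26, 0 and 0.19 TPM in LN and 51.2 and 40.0 TPM in MFP (log2 difference -4.63, adjusted p = 0.00867). It was highest within LN in LN CD44low 1, and did not pass without MFP 1 (-4.46) or MFP 2 (-4.80). Bmp7 had 12.7, 6.23, 2.84 and 3.28 TPM in LN and 0.42 and 0 TPM in MFP (log2 difference 2.42, adjusted p = 0.0196). Bmp7 did not pass without MFP 1 (2.67) or MFP 2 (2.16). Tgfbr1, the type I receptor for TGF-beta, passed the adjusted p but not the fold (10.6, 3.51, 2.38 and 3.34 and 18.6 and 20.9 TPM, log2 difference -1.97, adjusted p = 0.0296). Among 12 tested YAP-TEAD and CCN genes (median -0.36, or 0.05 with scaling, -0.73 without LN CD44low 1 and -0.18 without MFP 1) only F3 (tissue factor, which starts coagulation) rose (2.39% of all genes), at 19.2, 84.2, 121 and 88.5 TPM in LN and 10.7 and 5.50 TPM in MFP (log2 difference 2.91, adjusted p = 0.0258). F3 did not pass without LN CD44high 2 (2.77), MFP 1 (3.34) or MFP 2 (2.49). The YAP targets Ccn1 (1127, 214, 225 and 229 and 482 and 365 TPM) and Ccn2 (187, 36.2, 36.1 and 50.4 and 123 and 39.2 TPM) were highest in LN CD44low 1 and overlapped MFP.

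Of the mammary lineage and milk genes, 1 of 13 tested members fell and none rose (3.47% of all genes fell), with a median of 0.76, or 0.35 with a filter of 5 TPM. Without LN CD44low 1, 2 rose and the median was 1.07. Gata3, the master regulator of luminal mammary cells, had 4.08, 2.10, 2.96 and 2.32 TPM in LN and 41.4 and 36.6 TPM in MFP (log2 difference -3.40, SE 0.29, adjusted p = 3.93e-04), lower in all 4 LN libraries. Sox9, a factor of mammary progenitors, overlapped (111, 148, 157 and 136 and 155 and 152 TPM). The receptor gene Kit was listed at 0 in MFP and at 0.24, 2.32, 6.11 and 10.6 TPM in LN, without passing (adjusted p = 0.105).

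Each metabolic list held 1 or 2 calls, all of them rises (2.39% of all genes rose). Of 21 tested glycolysis and hypoxia genes 1 rose, or 3 with scaling and none without either MFP library, and the median was 0.94. Without LN CD44low 2 the median was 0.64 and 1 fell. Ldha, which makes lactate, had 2113, 6637, 4453 and 3845 TPM in LN and 1446 and 1142 TPM in MFP (log2 difference 1.61, adjusted p = 0.0305). The hypoxia-induced gene Bnip3 had 26.4, 518, 153 and 64.2 and 41.0 and 50.1 TPM (log2 difference 1.24, adjusted p = 0.405). Both were highest in LN CD44low 2, where the list summed to 29768 TPM beside 10902 to 20177 TPM in the other LN libraries and 8878 to 9435 TPM in MFP. The call was Egln3, an oxygen sensor that marks HIF for decay, at 2.10, 15.7, 20.01 and 6.74 TPM in LN and 0.05 and 0.04 TPM in MFP (log2 difference 3.20, adjusted p = 0.0221). Egln3 did not pass without MFP 1 (3.20) or MFP 2 (3.19). Of 25 genes of cholesterol and fatty acid synthesis Scd1 alone rose, with a median of 0.17, and 2 rose with scaling. The median of that list was 0.58 with scaling, 0.61 without MFP 1 and -0.24 without MFP 2. Scd2, a close relative of Scd1, lay above MFP in every LN library (177, 198, 291 and 365 and 101 and 61.4 TPM, log2 difference 1.64, adjusted p = 0.0175).

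Fatty acid oxidation had 2 rises among 17 tested genes, around a median of -0.11 that was 0.31 with scaling, -0.17 without MFP 1 and 0.04 without MFP 2. Ppargc1a, the coactivator of mitochondrial biogenesis, had 7.80, 6.94, 12.1 and 10.7 TPM in LN and 0.35 and 0.04 TPM in MFP (log2 difference 3.10, SE 0.31, adjusted p = 7.67e-04). Fabp5, a fatty acid carrier, had 636, 302, 1197 and 1210.5 TPM in LN and 228 and 126 TPM in MFP (log2 difference 2.09, adjusted p = 0.0409). Fabp5 did not pass without LN CD44low 1 (2.16), LN CD44high 1 (1.85), LN CD44high 2 (1.85), MFP 1 (2.52) or MFP 2 (1.67). The enzymes of the pathway itself went no common way: Acaa2 lay below MFP in every LN library (32.2, 45.3, 29.4 and 26.6 and 122 and 99.4 TPM, log2 difference -1.72, adjusted p = 0.00479). Hadha had 163, 131, 115 and 120.2 TPM in LN and 106 and 122 TPM in MFP (log2 difference 0.21, adjusted p = 0.507). Of 18 tested glutathione, NRF2 and aldehyde dehydrogenase genes Gstm1 rose (4.15, 9.03, 16.9 and 8.84 and 0.77 and 0.90 TPM, log2 difference 2.41, adjusted p = 0.0123, and 2.36 and 2.46 without MFP 1 or MFP 2, neither of which passed). The list had a median of 0.05 that was 0.45 with scaling, -0.16 without MFP 1, -0.13 without LN CD44low 1, when 1 fell, -0.10 without LN CD44low 2 and -0.13 without LN CD44high 1. Nfe2l2, which encodes NRF2, lay below MFP in every LN library (84.2, 74.5, 83.1 and 75.7 and 161 and 151 TPM, log2 difference -0.97, adjusted p = 0.0101).

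Genes of mitosis and replication held 1 call among 26 tested members (5.87% of all genes were called) and a median of -0.06, which was 0.35 with scaling and ran from -0.30 without LN CD44low 1 to 0.41 without LN CD44low 2 when 1 library was left out. Mki67, a marker of cycling cells, had 12.4, 1.07, 7.89 and 7.17 TPM in LN and 8.01 and 6.69 TPM in MFP. Ccnb1, cyclin B1, had 182, 15.5, 167 and 176 and 68.3 and 112 TPM. Neither was called, and LN CD44low 2 was the lowest of the 6 libraries in both. The call was Birc5, survivin, an inhibitor of apoptosis that also guides chromosomes in mitosis, at 2496, 345, 3601 and 3645 TPM in LN and 161 and 146 TPM in MFP (log2 difference 3.58, SE 0.90, adjusted p = 0.0315). It lay above MFP even in LN CD44low 2, and did not pass without any 1 of the other libraries (3.43 without LN CD44low 1, 3.25 and 3.25 without LN CD44high 1 or 2, 3.65 and 3.50 without MFP 1 or 2). Of 17 tested cell cycle inhibitors and p53 targets 2 fell (3.47% of all genes), with a median of -0.24 that was 0.18 with scaling, when 1 rose. Without either MFP library 1 fell, and the median was 0.13 without MFP 1 and -0.51 without MFP 2. Cdkn2b, the CDK4 and CDK6 inhibitor p15, had 0.16, 0, 0 and 0 TPM in LN and 66.2 and 51.9 TPM in MFP (log2 difference -5.84, SE 0.25, adjusted p = 3.15e-05). Its neighbor Cdkn2a was listed at 0 in LN and had 1.27 and 0.98 TPM in MFP, under the filter. Cdkn1a, the inhibitor p21, overlapped (198, 426, 228 and 143 and 325 and 226 TPM).

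Called genes lay close together at 4 places in the genome, in positions of GENCODE vM21 on mm10. These were found by a running median of 11 neighboring tested coding genes, with a limit of 2 on the log2 scale, after the data were seen and without a test. Over 11030 windows the median was -0.38, the 1st percentile -1.32 and the 99th 0.71. On chromosome 11 from 117.2 to 119.228 Mb, 13 of 24 genes rose (2.39% of all genes rose) and none fell. The running median there reached 2.60, or 2.92 with scaling. Birc5 is one of them, beside Lgals3bp, a secreted glycoprotein (32.9, 86.0, 50.8 and 35.7 TPM in LN, 1.23 and 0.19 TPM in MFP, difference 4.90), C1qtnf1 (3.32), Usp36 (2.93), Timp2 (2.74) and Socs3, the feedback inhibitor of cytokine signaling (2.54). In that stretch 19 of the 24 genes were above both MFP libraries in all 4 LN libraries, an order found in 12.1% of all genes tested. On the same chromosome, 10 of 20 genes fell from 120.099 to 120.625 Mb (3.47% of all genes fell) and none rose. The running median there reached -2.29, and -1.90 with scaling, short of the limit of 2. The falls included Pcyt2 (-3.39) and the deacetylase gene Sirt7 (-3.05). Syngr2, Afmid and Gm20708 overlap in the first stretch, and Hgs has 2 identifiers in the other, so their values are less sure.

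On chromosome 5 from 140.621 to 145.14 Mb, 22 of 39 genes fell (3.47% of all genes fell) and none rose. The running median reached -2.36, and -1.95 with scaling, which is short of the limit of 2. In 38 of the 39 every LN library was below both MFP libraries, an order found in 34.2% of all genes tested. They included Ap5z1 (-3.39), the lipase gene Daglb (-3.34), the autophagy gene Wipi2 (-2.97) and the mismatch repair gene Pms2 (-2.24, not passed with scaling, -1.84, or without MFP 1, -2.17, or MFP 2, -2.31). Actb, in the same stretch, was below MFP in every LN library and was not called (6665, 2895, 5526 and 6272 and 7142 and 6757 TPM, difference -0.45). On the X chromosome from 142.681 to 150.814 Mb, 8 of 18 genes rose (2.39% of all genes rose), and 5 of the 8 carry a Gm number. Among the 8 was the kinase gene Pak3 (66.5, 43.2, 37.0 and 43.1 and 2.97 and 3.23 TPM, difference 3.53). Ott had 13.4, 22.6, 6.06 and 4.06 TPM and Gm15085 had 4.48, 7.54, 2.02 and 1.35 TPM in LN, in a nearly fixed proportion, and both were listed at 0 in MFP. Reads of such copies may be split between them, so the 8 are not 8 separate measurements. For the same 4 stretches the median differences LN minus BM were -0.12 and -0.16 on chromosome 11, 0.02 on chromosome 5 and -0.12 on X.

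**Figure D3:**
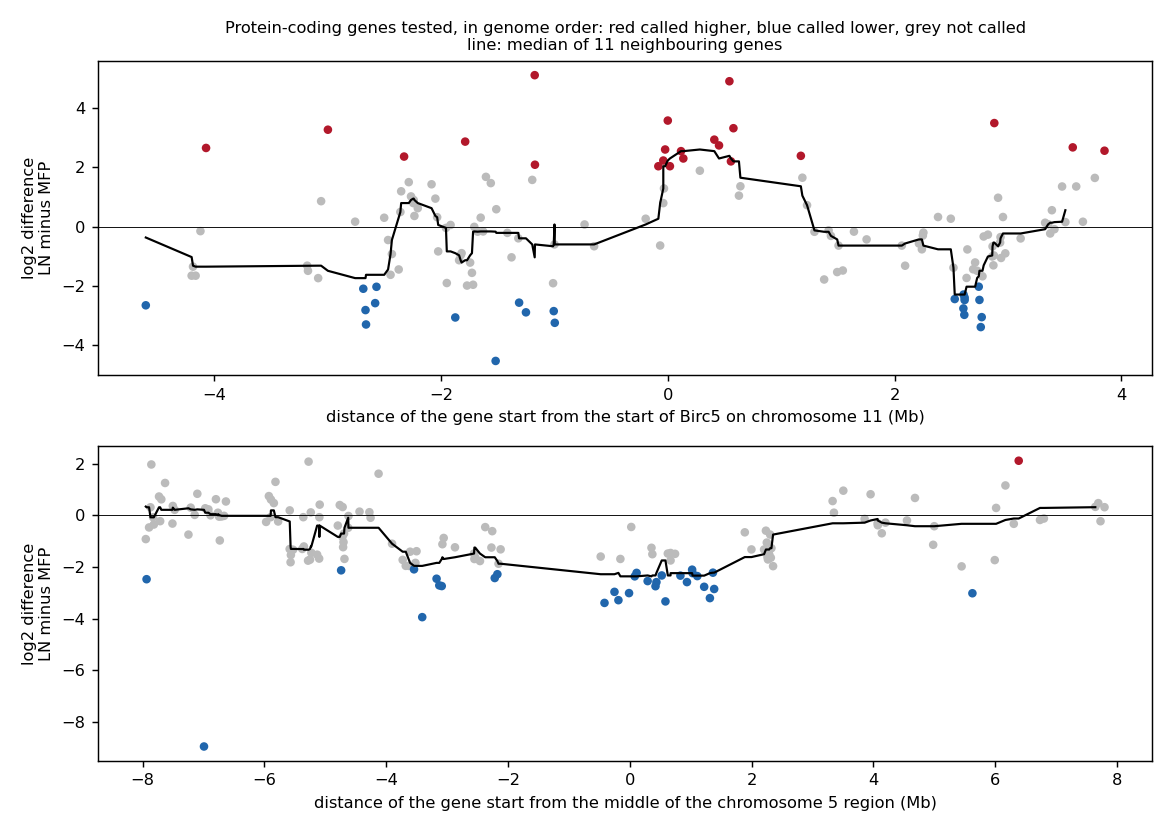
Log2 differences LN minus MFP of single tested genes against distance in Mb from the start of Birc5 on chromosome 11 (top) and from the middle of the chromosome 5 stretch (bottom), with the running median of 11 genes as a line. The line rises to 2.60 around Birc5 and drops to -2.29 beyond it on chromosome 11, and drops to -2.36 on chromosome 5.

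The libraries labelled CD44high and CD44low were also compared within LN, where the Cd44 transcript was lower in both libraries labelled CD44high, and directions below follow the labels. All genes given were named after their values were seen. The labelled groups differed in 16 of 13038 genes tested (0.123%), with 5 higher (0.0383%) and 11 lower (0.0844%) in CD44high. Only 1 gene was called with the replicate number as a block, 7 with a crossed pairing of the LN numbers, and 1 with no filter on low values. Id1, an inhibitor of basic helix-loop-helix factors that BMP signals induce, had 499.5, 435, 68.0 and 58.6 TPM in LN and 333 and 440.1 TPM in MFP (log2 difference CD44high minus CD44low -2.87, SE 0.22, adjusted p = 0.0282). Id3 had 177, 139.9, 27.9 and 27.4 and 141 and 141 TPM (log2 difference CD44high minus CD44low -2.47, SE 0.21, adjusted p = 0.0293). The CD44low libraries were near the MFP level in both genes, and the CD44high libraries were below it. Fgfbp1, a carrier that releases fibroblast growth factors from the matrix, had 7.56, 11.99, 161 and 167 TPM in LN and 4.86 and 3.35 TPM in MFP (log2 difference CD44high minus CD44low 3.97, SE 0.31, adjusted p = 0.0282). Slc39a4, a zinc importer, had 1.32, 1.26, 39.8 and 32.3 TPM in LN and 1.85 and 0.76 TPM in MFP (log2 difference CD44high minus CD44low 4.01, SE 0.33, adjusted p = 0.0293). Slc39a4 was thus at the MFP level in CD44low cells and higher in CD44high cells. Cbr2, a carbonyl reductase, had 4.56, 6.15, 58.9 and 42.3 TPM in LN and 0.63 and 0.56 TPM in MFP (log2 difference CD44high minus CD44low 3.01, SE 0.30, adjusted p = 0.0493). Without LN CD44high 1 no gene was called. Without LN CD44high 2 there were 7 calls, 1 of them among the 16, and without MFP 1 or MFP 2 there were 2, again with 1 among the 16. Without LN CD44low 1 there were 115 calls and without LN CD44low 2 there were 25, of which 9 and 5 were among the 16. In both of these cases only 9 of the 16 could still be tested. With an LN library left out, 1 labelled group is a single library, whose spread is assumed to be that of the others. The libraries labelled CD44low also differ between themselves in growth genes, as given above, and the part of that difference was not tested.

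BM lines, which share no MFP library with the comparison, were tested directly against LN with CD44 status as a term. Of 13310 genes tested, 2 were higher in LN (0.015%) and 10 lower (0.0751%), and the median difference was -0.05. At an unadjusted p under 0.05 and the same fold, 17 were higher and 83 lower. With no filter on low values no gene was called, and with a filter of 5 TPM 1 was higher and 2 lower. Hspb8, a small heat shock protein, had 245, 112, 80.4 and 78.2 TPM in LN and 19.3 to 33.6 TPM in BM (log2 difference LN minus BM 2.14, SE 0.26, adjusted p = 0.0392). The small RNA gene Gm25117 had 8.36 to 8.77 TPM in LN and was listed at 0 in BM. Aldh3a1, an aldehyde dehydrogenase, had 17.1, 29.0, 106 and 69.1 TPM in LN and 192 to 1164 TPM in BM (log2 difference LN minus BM -3.74, SE 0.33, adjusted p = 0.00983). Dlgap1 was at 0.17 to 5.07 TPM in LN and 12.8 to 26.03 TPM in BM (log2 difference LN minus BM -2.90, SE 0.38, adjusted p = 0.0429). The histone variant gene H2afy2 was at 0 to 0.42 and 5.85 to 7.89 TPM (log2 difference LN minus BM -2.69, SE 0.23, adjusted p = 0.00983). Gsta3 was at 0 to 3.90 and 8.98 to 19.6 TPM (log2 difference LN minus BM -2.80, SE 0.34, adjusted p = 0.0392). Rtl3 was at 5.89 to 16.7 TPM in BM, whereas each LN library listed it at 0. In each of these, LN and BM did not overlap. With 1 library left out, 0 to 8 genes were lower and 1 to 4 higher. No gene was called lower without LN CD44high 2 or without BM CD44high 1, 2 without LN CD44low 1, 3 without BM CD44low 2, and 5 without LN CD44low 2 or without LN CD44high 1. Only 1 was higher without LN CD44low 1, BM CD44low 1, BM CD44low 2 or BM CD44high 1, and 4 without LN CD44high 1.

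For 4 of the leading genes, the levels in the other organs are given beside those of LN. Sparc was at 427 to 903 TPM in the 4 BM libraries and 762 to 2242 TPM in the 4 lung libraries. Rhox5 was at 412 to 515 TPM in BM and listed at 0 in all 4 lung libraries. Hspb1 was at 0 to 0.85 TPM in BM. In lung it was at 652 and 458 TPM in the CD44low libraries and listed at 0 in both CD44high libraries. Cldn7 was at 0.09 to 0.65 TPM in BM and 0 to 0.22 TPM in lung. The LN minus BM difference was -0.01 on the log2 scale for Sparc and -0.01 for Rhox5, neither of them called, and Cldn7 and Hspb1 stayed under the filter in LN and BM. BM and lung were not set against MFP here, since those differences would share the same 2 MFP libraries.

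**Figure D4:**
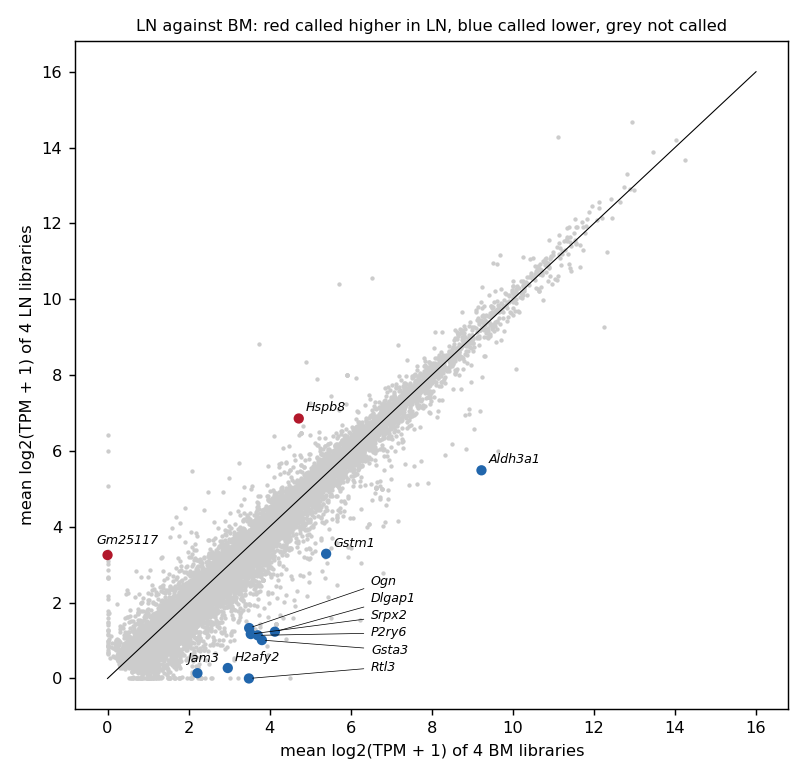
Mean log2(TPM + 1) over the 4 LN libraries against the mean over the 4 BM libraries, with 1 point for each of the 13310 genes tested. Most points lie along the diagonal, and the 12 labelled genes are those called, 2 above it toward LN and 10 toward BM.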

How the data were processed

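Bulk RNA-seq was measured in cultured, sorted cells. Per the study's methods, modified SMART-seq2 cDNA was sequenced on a NextSeq500 and aligned to mm10 by STAR. The authors took gene levels from RSEM with GENCODE v21 and deposited them as TPM. Their exact test in edgeR used read counts, which are not used here. Strand was not stated. The single-cell count matrices were not used here.

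Gene identifiers were matched to GENCODE vM21 (55450 of 55450). Genes with TPM of 1 or more in 2 or more of the 6 libraries were kept, log2(TPM + 1) was taken, and limma 3.58.1 (lmFit, then eBayes with trend; R 4.3.3; package data.table, version 1.17.8) estimated 2 group means, with 4 residual degrees of freedom. The LN and BM fit (8 libraries) had CD44 status as a term and 5, and the CD44 contrast 3. A call needed an absolute log2 difference over 2 and an adjusted p (Benjamini-Hochberg) under 0.05. The procedure was tested on simulated data. For LN against MFP, p-values measure the spread among pooled libraries, which holds the difference between CD44 groups as well as that between isolates. The LN libraries were treated as independent, although the sources do not say whether any share a mouse. Named genes were the 15 largest rises and falls among called coding genes without overlap, leaving out Gm and Rik symbols, up to 3 called members per direction of each list, other list members, and for LN against BM the 5 largest in each direction. A few of the genes so named are not reported here. The comparison, its gene lists and its tests were chosen with earlier results of these data known. Where 1 library of a group is left, its spread is taken as that of the other groups. Python 3.11.15, pandas 2.3.3, numpy 2.4.6 and matplotlib 3.10.9 made the tables and figures. Alternatives were a pseudocount of 0.1, no filter, a filter of 5 TPM, median ratio scaling, the replicate number as a block, all 14 libraries, CD44 groups as 3 means, the unadjusted p and each library left out.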

Additional observations from a re-analysis of the deposited data

Results flagged for a closer look

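Among the 4 LN libraries, 1 library stood apart from the other 3 by Dixon's limit in 13 of 176 named genes, where chance marks about 1 in 20. All 13 fell on the CD44low libraries. In LN CD44low 1, Plekhb1 was at 15.5 TPM, Krt8 at 756 TPM and Timp3 at 32.8 TPM, each below the other LN libraries. In the same library Wnt7a was at 7.12 TPM, Ccn1 at 1127 TPM, Itgb4 at 20.5 TPM, Pkp1 at 17.1 TPM and Zeb2 at 11.9 TPM, each above them. In LN CD44low 2, Birc5 was at 345 TPM, Ccnb1 at 15.5 TPM, Ccl2 at 8.98 TPM, Cldn4 at 52.5 TPM and Esrp1 at 8.06 TPM, all below the other LN libraries.

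The CD44 groups of LN differed in 16 genes by the contrast of CD44high with CD44low (limma, adjusted p under 0.05, 2 libraries each). With the replicate number as a block, or with no filter on low values, 1 gene was called. On the log2 scale, CD44high minus CD44low, the differences were 4.01 for Slc39a4, 3.97 for Fgfbp1, 3.14 for Il1f6, 3.01 for Cbr2, -2.47 for Id3 and -2.87 for Id1. The other 10 genes were listed at 0 in both libraries of 1 group. Gm44357 was at 9.67 TPM or more in CD44high and at 0 in CD44low. The reverse held for Gm24523 (4.45 TPM or more in CD44low), Gm11572 (5.34), Smt3h2-ps4 (7.37), Mir1907 (12.85), Gm25313 (15.1), Gm22710 (26.8), Mir5117 (27.1), Gm26109 (35.95) and Mir5136 (50.2), which are pseudogenes or genes of short RNAs, whose TPM rest on few reads over a short length. Whether a value of 0 is a failed estimate was not tested.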

How the results depend on the processing

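The limits are 2 MFP libraries, unknown depth and 4 residual degrees of freedom. Of 107 named genes called in LN against MFP, 72 kept the call under each of 12 alternatives that gave a value. No filter and the unadjusted p are not among these 12. Of 1248 values, 0 changed direction. Called genes did not overlap between LN and MFP, so a change of direction was hardly possible and its absence is no support. Of 31 named genes that were not called and are given with a difference, Epcam changed direction, to 0.0676 with median ratio scaling. With 1 library left out, genes higher in LN numbered 163 to 361 and genes lower 179 to 497, and a pseudocount of 0.1 gave 615 higher and 672 lower, against 312 and 453. Of the 453 lower genes, 282 could still be tested with 1 MFP library, since a gene at 1 TPM only in MFP then misses the filter. For LN against BM, higher genes numbered 1 to 4 and lower genes 0 to 8 with 1 library left out. No filter on low values gave 0 and 0, a filter of 5 TPM 1 and 2, all 14 libraries 8 and 55, no CD44 term 1 and 4, and the unadjusted p 17 and 83. CD44high against CD44low in LN gave 0 to 115 genes with 1 library left out, 1 with no filter, 36 with all 14 libraries and 110 with the unadjusted p. The cause of these moves was not tested. With the replicate number as a block, LN against MFP had 303 higher and 453 lower genes and Ceacam1 lost its call, LN against BM had 1 and 3, and the CD44 contrast had 1. The replicate numbers were not taken as pairs in the main fits. Deviations of same-numbered libraries correlated at -0.10, 0.04 and -0.07 within LN and MFP, and at -0.16, -0.20, 0.02 and 0.13 between LN and BM. Such values cannot show whether same-numbered libraries share a mouse or a culture, which the sources do not state. A crossed pairing of the LN numbers, added after the data were seen, gave 7 genes in the CD44 contrast.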

Other observations

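Replication-dependent histone genes were looked at after the values were seen, by their symbols (Hist1h to Hist4h). Their mRNAs are made in S phase and mostly end in a stem-loop in place of a poly(A) tail. Of 59 tested genes, 3 rose in LN and none fell (2.39% of all genes rose), and the median difference was 1.02 beside -0.34 for all genes. With scaling 6 rose and the median was 1.36, and with LN CD44low 2 left out 12 rose and the median was 1.38. Only 1 rose without LN CD44high 1, without LN CD44high 2 or without MFP 2. Hist1h2ai had 15.8, 10.1, 45.7 and 40.9 TPM in LN and 4.85 and 0 TPM in MFP (log2 difference 3.35, adjusted p = 0.0293). Hist1h2ah had 18.8, 13.6, 32.7 and 21.9 and 4.33 and 0 TPM (log2 difference 3.23, adjusted p = 0.014). Hist1h3d had 15.5, 2.88, 7.90 and 7.24 and 0.63 and 0.89 TPM (log2 difference 2.24, adjusted p = 0.0251). All LN libraries lay above both MFP libraries in these 3 genes. Hist1h2ah did not pass without MFP 2 (2.03), Hist1h2ai did not pass without MFP 2 (2.07) or either CD44high library (3.04 and 3.09), and Hist1h3d passed with LN CD44low 2 left out but not without any other 1 library. The list summed to 3983, 1779, 5206 and 5742 TPM in LN and to 2360 and 1637 TPM in MFP, lowest within LN in LN CD44low 2, the library with the lowest mitosis genes, whose part in these values was not tested. Members of this family are near-identical in their coding parts, so the split of reads among them is uncertain.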
